A study of Oryctolagus cuniculus with 4 samples.

Results

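Blood endothelial identity genes were examined in rabbit ear hypertrophic scar (HS) tissue. The genes were chosen by name, as 10 genes that mark the cells lining blood vessels, when earlier results of these data were already known. Of these 10, 7 were matched by symbol in the table of 13913 genes: VWF, PECAM1, CDH5, EMCN, KDR, TIE1 and TEK. All 7 had values above 0 in all 4 libraries and passed the filter on low values. EGFL7, CLDN5 and PLVAP were not analysed here.

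Single-cell RNA-seq libraries were made by the 10x Genomics droplet method from dissociated ventral epidermis and dermis of wild-type scars raised by wounding the rabbit ear, with 1 tissue per library. The HS group (n = 2) received no treatment. The drug-loaded MNs group (n = 2) received microneedle patches whose tips stay in the skin and release a prodrug of a 5-fluorouracil derivative, 1 time a week for 3 weeks. No library of drug-free microneedles was analysed here, so the drug and the needles cannot be told apart.

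Endothelial cells line every blood vessel and are held together by junctions in which VE-cadherin, the product of CDH5, and the adhesion molecule PECAM1 take part. Their growth and survival are governed by the VEGF receptor encoded by KDR and by the angiopoietin receptor encoded by TEK, with its relative TIE1. They store von Willebrand factor, the product of VWF, and release it at sites of injury, where it binds platelets. EMCN encodes endomucin, a sialomucin of capillary and venous endothelium. Some of these genes are not exclusive to blood endothelium, and the examples given here are not a full list. Lymphatic endothelium also uses CDH5 and PECAM1, leukocytes and platelets carry PECAM1, and platelets carry VWF.

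Each gene had 1 value per library, and there were no values per cell. Values were rescaled so that each library summed to 1000000, and a unit below means 1 part in that total. Depth was unknown, so no counting interval could be given. In such values, fewer endothelial cells and less RNA per endothelial cell cannot be told apart. Over the 9348 tested genes the log2 fold change (drug-loaded MNs minus HS) had a median of 0.12, and differences are to be read against that shift. HS replicate 1 stood apart from the other libraries: on the first principal component, which held 43.0% of the variance, it lay at -37.2, HS replicate 2 at 0.95 and the drug-loaded MNs libraries at 18.3 and 17.9. Mitochondrially encoded genes made up 2.75% and 2.80% of the HS libraries and 4.37% and 4.58% of the drug-loaded MNs libraries.

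To examine whether the vessel lining differed after treatment, the 7 genes were compared between the groups. They did not share 1 direction. CDH5 and PECAM1 were higher in both drug-loaded MNs libraries than in either HS library, VWF and TIE1 were lower in both, and KDR, TEK and EMCN overlapped. In limma, 0 of the 7 passed an adjusted p of 0.05, against 0.0428% of all tested genes. At an unadjusted p under 0.05 there was 1 gene, CDH5, which was higher, where 7.26% of all tested genes were called in that direction and 1.39% in the other. Groups free of overlap were found for 2 of 7 genes on the higher side and 2 of 7 on the lower side, against 26.6% and 11.2% of all tested genes. The median log2 fold change of the 7 genes was 0.08, and it turned to -0.051 with median ratio scaling and to -0.14 with quantile normalization. Leaving out HS replicate 1 gave 2 genes higher and 3 lower, with 39.6% and 30% of all tested genes. Without HS replicate 2 these counts were 5 and 2, with 54.2% and 24.1% of all tested genes, and without drug-loaded MNs replicate 1 they were 4 and 2, with 34.7% and 25.8%. Without drug-loaded MNs replicate 2 they were 2 and 2, with 48.9% and 18.2% of all tested genes.

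**Figure D1:**
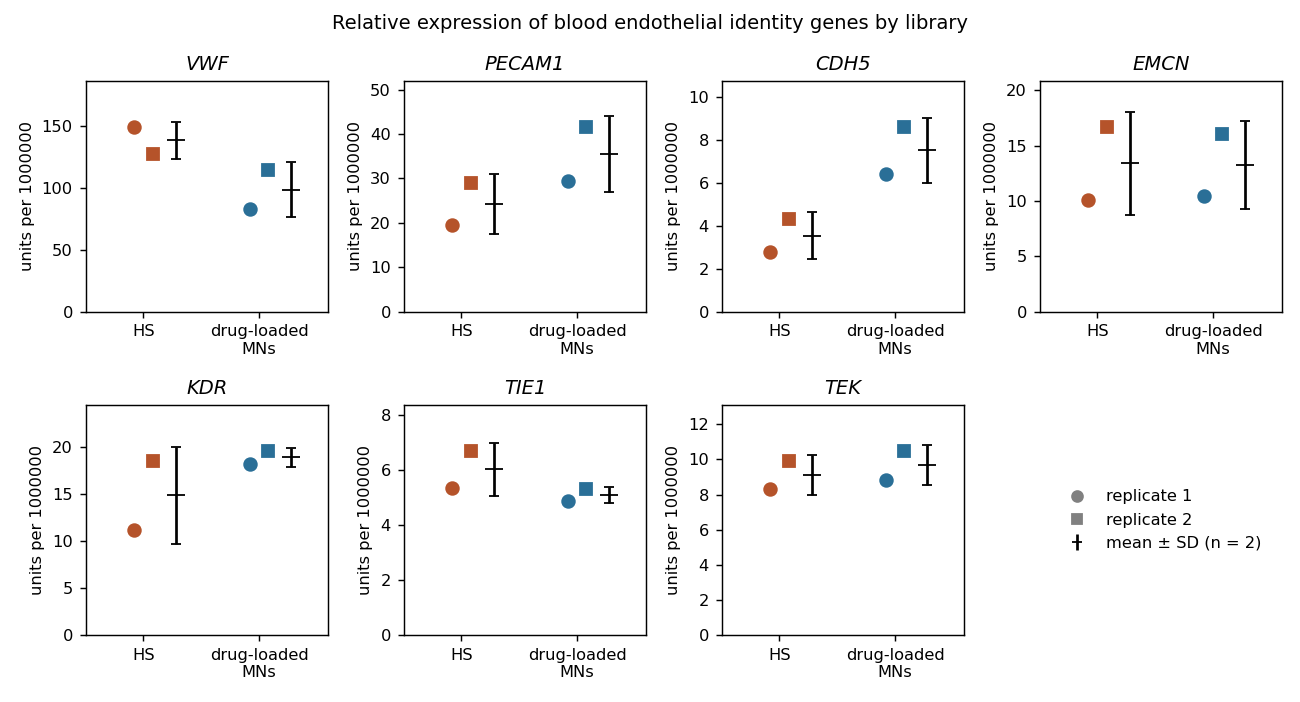
Relative expression of the 7 genes in units per 1000000, on linear axes that start at 0, with 1 point per library (circle, replicate 1; square, replicate 2) and black bars for mean ± SD (n = 2 per group). CDH5 ran from 2.76 to 4.30 units in HS and from 6.42 to 8.58 in drug-loaded MNs, while the points of TEK and EMCN overlapped.

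Among the junction genes, CDH5 stood at 2.76 and 4.30 units in the HS libraries, compared with 6.42 and 8.58 units after drug-loaded MNs. The lowest drug-loaded MNs library was thus above the highest HS library. The means were 3.53 ± 1.08 and 7.50 ± 1.52 units (SD, n = 2 each), a ratio of 2.12. On the log2(value + 1) scale, which understates differences of low genes, the fold change was 0.92 (SE 0.32, 95% interval 0.17 to 1.66, limma adjusted p 0.445). CDH5 held rank 463 by unadjusted p among the tested genes. Its direction was the same in all 14 alternative settings, the smallest value being 0.55 with a pseudocount of 5.

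PECAM1, which sits beside VE-cadherin at endothelial junctions, was measured at 19.5 and 29.0 units in HS and at 29.4 and 41.6 units in drug-loaded MNs. Although the groups did not overlap, HS replicate 2 and drug-loaded MNs replicate 1 were nearly level. The means were 24.2 ± 6.66 and 35.5 ± 8.60 units (SD, n = 2 each). On the log2 scale PECAM1 differed by 0.54 (SE 0.30, 95% interval -0.16 to 1.23, limma adjusted p 0.716), by 0.26 without HS replicate 1, by 0.29 without drug-loaded MNs replicate 2 and by 0.81 without HS replicate 2.

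EMCN showed no separation of the groups, with 10.1 and 16.7 units in HS, next to 10.5 and 16.1 in drug-loaded MNs. The libraries differed within each group: replicate 2 was 1.65 times replicate 1 in HS and 1.54 times in drug-loaded MNs. Its log2 fold change was -0.0034 (95% interval -0.80 to 0.79, limma adjusted p 0.9995), so a difference within these bounds could not be seen with 2 libraries per group.

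For the secreted clotting protein, VWF stood at 149 and 128 units in HS and at 83.1 and 114 units in drug-loaded MNs. Both drug-loaded MNs libraries were below both HS libraries, yet drug-loaded MNs replicate 2 lay closer to HS replicate 2 than to drug-loaded MNs replicate 1. The means were 138 ± 15.2 and 98.7 ± 22.0 units (SD, n = 2 each), a ratio of 0.713. The log2 fold change was -0.50 (SE 0.25, 95% interval -1.07 to 0.07, limma adjusted p 0.673), and this direction was also the same in all 14 alternative settings, with -0.27 in the absence of drug-loaded MNs replicate 1.

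The receptor genes differed less. KDR, the main signalling receptor for VEGF in blood endothelium, stood at 11.2 and 18.6 units in HS and at 18.2 and 19.6 in drug-loaded MNs. A single low value, that of HS replicate 1, set its difference apart from 0: the log2 fold change of KDR was 0.37 (limma adjusted p 0.822), 0.026 without HS replicate 1 and 0.71 without HS replicate 2.

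TEK, the angiopoietin receptor also called Tie2, stood at 8.32 and 9.91 units in HS and at 8.86 and 10.5 in drug-loaded MNs. Replicate 1 was the lower library in both groups, and the ranges overlapped. The log2 fold change of TEK was 0.08 (95% interval -0.56 to 0.72, limma adjusted p 0.964), which is below the median of all tested genes, and its sign turned under median ratio scaling (-0.05) and quantile normalization (-0.14).

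TIE1, a receptor that pairs with TEK, stood at 5.35 and 6.70 units in HS and at 4.89 and 5.32 in drug-loaded MNs. The groups were separated by a very small gap, between drug-loaded MNs replicate 2 and HS replicate 1. The log2 fold change of TIE1 was -0.20 (SE 0.28, 95% interval -0.86 to 0.47, limma adjusted p 0.900), or -0.058 without HS replicate 2 and -0.45 with quantile normalization.

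**Figure D2:**
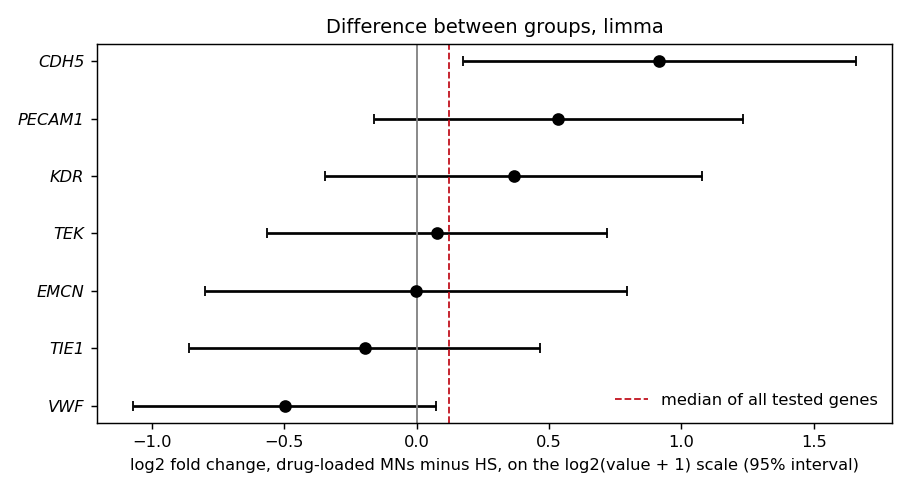
Log2 fold changes of the 7 genes (drug-loaded MNs minus HS, log2(value + 1) scale) with 95% intervals from limma; the grey line is 0 and the dashed line the median of all tested genes (0.12). The interval of CDH5 (0.17 to 1.66) is the one that leaves out 0.

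The order of the libraries differed between the genes as well. PECAM1 and CDH5 shared 1 order, with HS replicate 1 lowest, followed by HS replicate 2, drug-loaded MNs replicate 1 and drug-loaded MNs replicate 2. KDR and TEK shared another, in which HS replicate 2 and drug-loaded MNs replicate 1 changed places. VWF had HS replicate 1 as its highest library, whereas this library was the lowest for PECAM1, CDH5, KDR, TEK and EMCN. Within the HS group, replicate 2 was above replicate 1 for all genes but VWF, by factors from 1.19 for TEK to 1.66 for KDR. In the drug-loaded MNs group, replicate 2 was above replicate 1 for all 7 genes, by factors from 1.08 for KDR to 1.54 for EMCN. The spread over all 4 libraries, as highest over lowest, ran from 1.26 for TEK to 3.10 for CDH5.

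The summed level of the 7 genes gave 1 value per library for the endothelial signal. It was 206 and 213 units in HS, next to 161 and 216 units in drug-loaded MNs, so that the groups overlapped and drug-loaded MNs replicate 1 was the low library. The log2 difference was -0.17 (exact permutation p of 1, two-sided, where 2 libraries against 2 cannot give less than 0.33). VWF held most of this sum. Without VWF, a choice made after the values were seen, the sum was 57.3 and 85.1 units in HS, next to 78.3 and 102 in drug-loaded MNs, and the log2 difference was 0.35 (exact permutation p 0.667). Leaving out drug-loaded MNs replicate 1 turned the log2 difference of the sum with VWF to 0.042.

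Shares of the summed level set aside how much endothelial signal each library held, and they do not move with the scaling of a library to its total. VWF took 72.2% and 60.0% in HS, but 51.5% and 52.9% in drug-loaded MNs. The mean share of VWF was 66.1 ± 8.64% in HS, compared with 52.2 ± 1.01% in drug-loaded MNs (SD, n = 2 each), and the means differed by -13.9 percentage points. With each library left out in turn this difference ran from -20.0 points (without HS replicate 2) to -7.81 points (without HS replicate 1), so the size rested on HS replicate 1 while the direction did not. CDH5 took 1.34% and 2.02% in HS against 3.98% and 3.97% in drug-loaded MNs. PECAM1 took 9.47% and 13.6% in HS against 18.2% and 19.3%. TIE1 and EMCN overlapped in their shares, and KDR and TEK did not, with higher shares in drug-loaded MNs. The values were not known to be corrected for gene length, so each gene's share is compared between libraries and not with that of another gene. Because shares add to a fixed total, a lower share of VWF raises the others by construction.

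**Figure D3:**
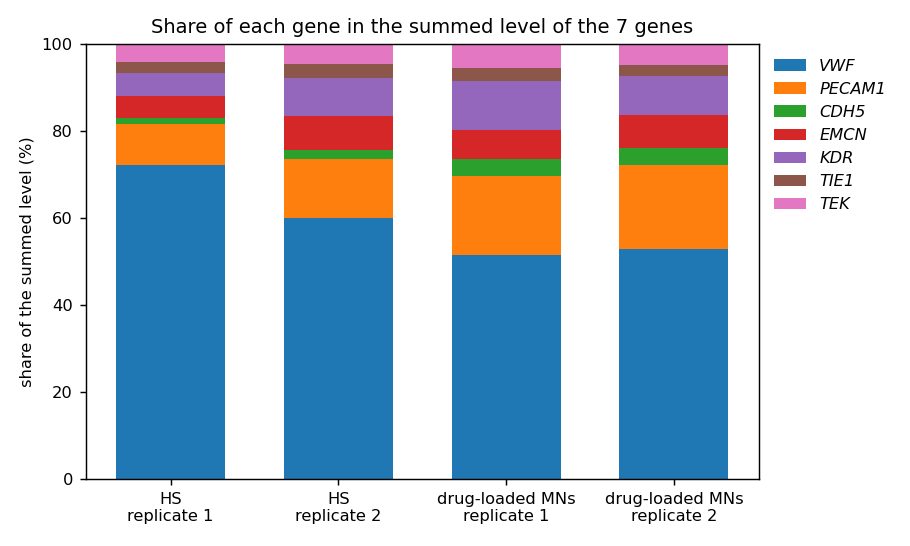
Share of each gene in the summed level of the 7 genes, in percent of that level, stacked with 1 bar per library. The VWF segment covers 72.2% and 60.0% of the HS bars, against 51.5% and 52.9% of the drug-loaded MNs bars.

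Ratios between the genes, which have no such fixed total, were also compared library by library. The largest difference among the 21 pairs was that of VWF to CDH5. This log2 ratio was 5.75 and 4.89 in HS, but 3.69 and 3.74 in drug-loaded MNs, so that the groups differed by -1.61 with a pooled SD of 0.43. The log2 ratio of CDH5 to TIE1 was -0.95 and -0.64 in HS, but 0.39 and 0.69 in drug-loaded MNs, so that the groups differed by 1.34 with a pooled SD of 0.22. CDH5 and PECAM1, though both higher, did not keep 1 ratio either: the log2 ratio of PECAM1 to CDH5 was 2.82 and 2.75 in HS, but 2.19 and 2.28 in drug-loaded MNs. TEK and EMCN kept closest to each other, differing by 0.09 with a pooled SD of 0.30. Groups did not overlap for 15 of the 21 ratios, which share genes, against 39.5% of all pairs of tested genes with values above 0 in each library. Of these 15 pairs, 4 held VWF and 11 did not. Every pair that held CDH5, a low gene in HS at 2.76 and 4.30 units, was among the 15.

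Relative to the geometric mean of the 7 genes, a measure added after the shares had been seen, the difference was 0.91 for CDH5 (pooled SD 0.11), 0.35 for PECAM1 (0.10), -0.43 for TIE1 (0.13) and -0.70 for VWF (0.33) on the log2 scale. The remaining genes overlapped between the groups on this measure, with differences of 0.19 for KDR, -0.11 for TEK and -0.20 for EMCN. By construction these log2 ratios cancel out in each library, so a gene that is higher lowers the others. No share over all tested genes was computed for this measure.

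The profile of the summed level over the 4 libraries was set against those of 5517 other genes with a symbol and a mean of at least 10 units. The closest, by root mean square distance of centred log2 values, were IRF5 (0.010), DCUN1D4 (0.018), FBXW8 (0.018), BAZ1A (0.024) and GNG12 (0.024). IRF5, a transcription factor of interferon responses, stood at 33.3, 35.0, 26.3 and 35.2 units in the order HS replicates 1 and 2, drug-loaded MNs replicates 1 and 2. With 4 libraries many profiles lie close to each other, so this is a description only.

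Other genes that blood vessels use, some of them also used by other cells of the tissue, were taken from 6 lists. Of 89 genes, 62 were in the table and 57 were tested. Among them 41 had a log2 fold change above 0 and 16 below, where 64.6% of all tested genes were above 0. None passed in limma, 5 were higher and 3 lower at an unadjusted p under 0.05 (7.26% and 1.39% of all tested genes), and the median was 0.19. Groups did not overlap for 19 on the higher and 8 on the lower side, or 33.3% and 14.0% of these genes, against 26.6% and 11.2% of all tested genes.

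Of 10 listed ligands that act on KDR, TEK and related receptors, 4 were tested. VEGFA, VEGFB and ANGPT2 were not analysed here. All 4 tested ligands had a log2 fold change above 0, where 64.6% of all tested genes did, and their median was 0.42. ANGPT1, the ligand that activates TEK, stood at 12.8 and 24.2 units in HS and at 27.8 and 26.2 in drug-loaded MNs. Here again HS replicate 1 was the low library, and the log2 fold change of ANGPT1 was 0.58 (limma adjusted p 0.720), or 0.15 without HS replicate 1. VEGFC, which acts chiefly on lymphatic endothelium, stood at 6.90 and 5.73 units against 14.6 and 6.80, and PGF at 1.91 and 3.05 against 2.76 and 3.42. Drug-loaded MNs replicate 1 alone set VEGFC apart (0.60, or 0.10 without that library).

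Among 14 other endothelial receptors and their partners, the median was 0.14, and 11 were above 0, against 64.6% of all tested genes. TGFBR2, a TGF-β receptor that many cell types carry, stood at 79.3 and 91.7 units in HS and at 173 and 122 in drug-loaded MNs (log2 fold change 0.76, limma adjusted p 0.428). NRP2, a co-receptor for VEGF family ligands, had a log2 fold change of 0.58, or 0.39 without drug-loaded MNs replicate 1. EDNRB, an endothelin receptor, had 0.73, which came to 0.25 without HS replicate 1 and to 1.22 without HS replicate 2.

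Of 8 tested endothelial transcription factors, 7 were above 0, against 64.6% of all tested genes, and the median was 0.33. SOX7, a factor of vessel development, was the exception. It stood at 75.6 and 76.6 units in HS and at 37.7 and 47.6 in drug-loaded MNs, with both drug-loaded MNs libraries lower. On the log2 scale SOX7 differed by -0.83 (SE 0.23, limma adjusted p 0.352), the lowest adjusted p of that list. MEF2C stood at 46.1 and 70.8 units against 97.6 and 95.9 (0.75, limma adjusted p 0.458). FLI1, an ETS factor shared with blood cells, stood at 15.6 and 17.5 units against 23.4 and 26.2 (0.56, limma adjusted p 0.601).

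Adhesion and junction genes had a median of 0.19 over 13 tested genes. CAVIN2, a coat protein of caveolae, stood at 14.3 and 15.7 units in HS and at 44.2 and 24.9 in drug-loaded MNs. Both drug-loaded MNs libraries were higher, though they differed from each other by more than the HS libraries did (log2 fold change 1.10, limma adjusted p 0.374). SELP and SELE, the selectins that catch leukocytes on activated endothelium, had log2 fold changes of 0.55 and 0.56 (limma adjusted p 0.664 and 0.691). P-selectin is stored in the same granules as von Willebrand factor, and SELP stood at 6.81 and 7.27 units in HS but at 11.5 and 10.1 in drug-loaded MNs, opposite in direction to VWF.

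Genes of vessel subtypes spread to both sides of 0, with 6 of 11 above and a median of 0.20. ACKR1, a chemokine-binding receptor of venules, stood at 55.5 and 36.9 units in HS and at 18.4 and 27.9 in drug-loaded MNs (log2 fold change -0.97, SE 0.31, limma adjusted p 0.417). RGCC, a cell cycle regulator found in capillary endothelium among other cells, stood at 188 and 119 units against 90.2 and 82.4 (-0.79, limma adjusted p 0.437). On the other side, CD36, a fatty acid receptor of capillary endothelium that macrophages also carry, stood at 2.83 and 2.61 units against 7.05 and 5.48 (0.96, limma adjusted p 0.404). None of these 3 genes overlapped between the groups, but they were named for having the smallest p-values of the list. Of the 11 genes, 2 did not overlap on the higher and 4 on the lower side, against 26.6% and 11.2% of all tested genes.

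In the group of vessel tone and clotting, with 7 tested genes and a median of 0.18, TFPI had the lowest adjusted p. It encodes the inhibitor of the tissue factor pathway and stood at 36.5 and 45.1 units in HS and at 71.8 and 108 in drug-loaded MNs (log2 fold change 1.10, SE 0.27, limma adjusted p 0.334). ACE, the angiotensin-converting enzyme, stood at 5.57 and 4.95 units against 3.48 and 3.09 (-0.55, limma adjusted p 0.696), and ECE1, which activates endothelin, at 5.93 and 10.1 against 11.2 and 11.8 (0.51, limma adjusted p 0.745).

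**Figure D4:**
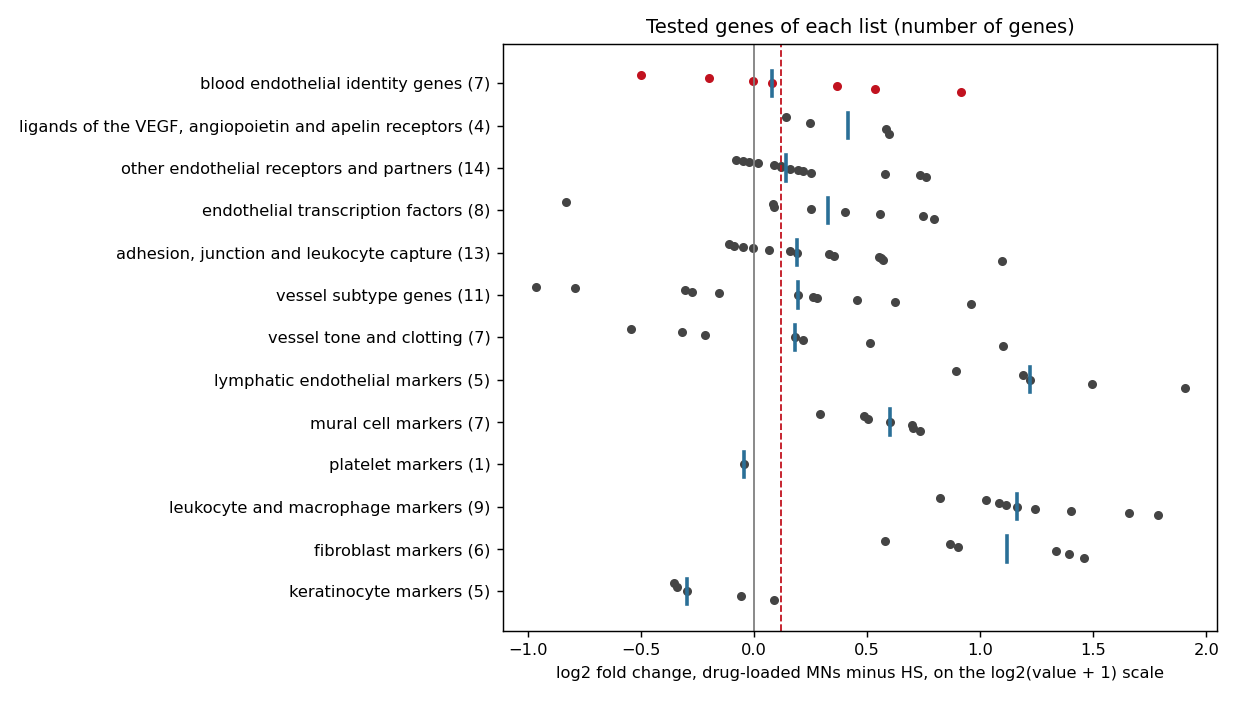
Log2 fold changes (drug-loaded MNs minus HS, log2(value + 1) scale) of the tested genes in each list, with 1 point per gene, a blue bar at the list median, a grey line at 0 and a dashed line at the median of all tested genes. The 7 blood endothelial identity genes, in red, have a median of 0.08, and the lymphatic markers one of 1.22.

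Markers of other cells that share some of these genes were read beside them. Of all tested genes, 64.6% were above 0 and 26.6% were free of overlap on the higher side. Lymphatic endothelial markers stood higher in drug-loaded MNs for 5 of 5 tested genes, with a median log2 fold change of 1.22. Their summed level over 6 genes was 67.9 to 75.2 units in HS and 159 to 266 in drug-loaded MNs, and no gene of the list was at 0 in any library. PROX1, the defining lymphatic factor, averaged 1.14 ± 0.85 units in HS, next to 3.83 ± 1.65 in drug-loaded MNs (SD, n = 2 each). Its HS values were low, at 0.54 and 1.74 units. MMRN1 (1.91, limma adjusted p 0.257), CCL21 (1.496, limma adjusted p 0.308) and LYVE1 (1.22, limma adjusted p 0.340) did not pass. Without drug-loaded MNs replicate 2 the log2 fold change was 2.20 for MMRN1 and 1.92 for CCL21. Without drug-loaded MNs replicate 1 these values were 1.61 and 1.07. In such fits the remaining library of the group has no spread of its own. Lymphatic endothelium shares genes with blood endothelium, CDH5 and PECAM1 among them. The part of lymphatic cells in the values of the blood endothelial identity genes was not tested.

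Leukocyte and macrophage markers were higher for 9 of 9 tested genes, with a median of 1.16. Over all tested genes, 64.6% were above 0 and 26.6% were free of overlap on the higher side. The summed level of the list was 111 to 125 units in HS and 269 to 271 in drug-loaded MNs. No gene of this list was at 0 in any library, but some were low in HS. There C1QB stood at 0.065 and 1.66 units, C1QA at 1.31 and 0.87 and CD2 at 0.56 and 1.24. PTPRC, the pan-leukocyte marker, stood at 19.5 and 18.5 units against 43.7 and 49.3 (log2 fold change 1.24, limma adjusted p 0.264), MRC1 had a log2 fold change of 1.03 and CD163 one of 1.40. Leukocytes carry PECAM1, FLI1, MEF2C and CD36 as well, and their part in these values was not tested.

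Of 4 platelet markers in the table, 3 (GP9, GP1BA and TREML1) had a value of 0 in at least 1 library and were too low to be tested, and the part of platelets in the values of VWF was not tested. ITGA2B, the tested gene of this list, had a log2 fold change of -0.05, and the summed level was 10.9 to 11.3 units in HS and 9.79 to 10.5 in drug-loaded MNs. Mural cell markers belong to the cells wrapped around vessels. With a median of 0.60, they were above 0 for 7 of 7 tested genes, against 64.6% of all tested genes. They did not overlap between the groups for 3 of the 7, on the higher side, against 26.6% of all tested genes. Their summed level was 400 and 743 units in HS, next to 918 and 726 in drug-loaded MNs, so the groups overlapped. PDGFRB, the receptor of pericytes and fibroblasts, had a log2 fold change of 0.60, ACTA2 one of 0.71 and ABCC9 one of 0.70, the lowest adjusted p of the list being 0.485. Without HS replicate 1 ACTA2 was at 0.36 and ABCC9 at 0.16.

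Fibroblast and keratinocyte markers were read in the same way, beside the share of all tested genes that were above 0 (64.6%). Fibroblast markers were higher for 6 of 6 genes (median 1.12), with summed levels of 22526 to 22996 units in HS and 44682 to 48616 in drug-loaded MNs; DPT (1.34), COL3A1 (1.46) and COL1A1 (1.39) had the lowest p-values of that list. Keratinocyte markers summed to 43702 and 55644 units in HS and to 37407 and 43386 in drug-loaded MNs, with 1 of 5 tested genes above 0 and 4 below. All 5 overlapped between the groups (lowest limma adjusted p 0.862), and the median was -0.30, with log2 fold changes of -0.35 for KRT10, -0.30 for KRT14 and -0.34 for KRT5. As every value is a part of the library total, the makeup of the libraries bears on the level of each endothelial gene, and its part was not tested. The ratios between the endothelial genes given above do not depend on that total. The part in these ratios of other cells that carry some of these genes was not tested.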

How the data were processed

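For the rabbit ear scar libraries the authors used Cell Ranger 2.1.1 (per the labels), which aligns reads and counts unique molecular identifiers, and then Seurat. The processing notes in the labels list the mouse build mm10, whereas the table carries rabbit Ensembl identifiers, so the build is not settled. The deposited values are named for FPKM, but each column summed to 10000, and they are treated as relative expression. The study's methods mention leaving out some cells, a limit on the mitochondrial share and a correction for batch. Whether the deposited values had passed through these steps, how cells were combined into 1 value and how doublets were treated was not given in the sources used here. Low values did not come in whole steps (18.6% to 21.7% within 0.1 of a whole step), so no count test was run.

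Values were rescaled to 1000000 per library. Genes with a mean of at least 1 were kept (9348). Log2(value + 1) was fitted with limma 3.58.1 (lmFit, eBayes with trend) under R 4.3.3, with the library as replicate and no covariate. P-values were two-sided and adjusted by the Benjamini-Hochberg method over all tested genes, with a threshold of 0.05. The labels do not say whether tissues of a group came from separate animals, so p-values measure the spread between these libraries only. The fit was tested on simulated data.

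Genes were named by a rule: all members, up to 3 genes per list with the smallest unadjusted p, and the 5 nearest profiles. PROX1, C1QA, C1QB, CD2, GP9, GP1BA and TREML1 were named outside it, after their values were seen. VEGFA, VEGFB and ANGPT2 were named because they were not analysed. Members, lists and tests were chosen with earlier results of these data known. Alternatives covered scaling, pseudocount, filter, variance prior, a replicate block and leaving out each library.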

Additional observations from a re-analysis of the deposited data

How the results depend on the processing

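Under all 14 alternatives, 0 of the 7 genes passed in limma. CDH5 was under an unadjusted p of 0.05 in 11 of the 14, the exceptions being quantile normalization (0.0739), the fit without HS replicate 1 (0.0997), and that lacking drug-loaded MNs replicate 2 (0.123), while PECAM1 and KDR were also under it without HS replicate 2 (0.0408 and 0.0417). PECAM1, VWF, CDH5, KDR and TIE1 kept their direction in all 14. TEK turned to -0.051 with median ratio scaling and to -0.14 with quantile normalization and ranged from -0.035 to 0.19 with 1 library left out, where EMCN ranged from -0.34 to 0.33. Among the other named genes, PGF was -0.0037 under quantile normalization, and with 1 library left out KRT14 ranged from -0.70 to 0.11, KRT5 from -0.97 to 0.29, IRF5 from -0.37 to 0.044, DCUN1D4 from -0.36 to 0.017, FBXW8 from -0.37 to 0.0029, BAZ1A from -0.35 to 0.033 and GNG12 from -0.38 to 0.068. The log2 difference of the summed level (-0.17) was 0.17 as a mean of log2 values over the 7 genes and 0.35 as a sum without VWF, chosen after seeing the data, and -0.38 to 0.042 with 1 library left out (0.042 without drug-loaded MNs replicate 1). The cause was not tested for these changes of sign, apart from the weight of VWF in the sum.

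The count over all genes (4) came to 0 with quantile normalization, median ratio scaling, a total without abundant genes, no filter or a pseudocount of 5, 1 with eBayes without trend, and 0 to 75 with 1 library left out, in fits where a group's remaining library has to borrow its spread from the other group. With the replicate number as a replicate block it was 241, with 0 of the 7 genes, and CAVIN2 (adjusted p 0.0404), TFPI (0.0116), MMRN1, CCL21, LYVE1, PTPRC, CD163, MRC1, DPT, COL3A1 and COL1A1 among them. Same-numbered libraries share only a number: across genes, deviations from group means had a correlation of 0.22, and 2 pairs cannot establish a pairing.

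List medians moved as follows under median ratio scaling, which set the all-gene median at -0.011 in place of 0.12: receptors 0.025, transcription factors 0.19, adhesion genes 0.051, subtype genes 0.11 and tone and clotting genes 0.049. Under quantile normalization they were 0.18 for ligands, -0.032 for receptors, 0.20 for transcription factors, 0.0997 for adhesion genes, -0.021 for subtype genes and -0.0020 for tone and clotting genes. Ligands were 0.27 with a pseudocount of 5, 0.25 without filter and 0.59 with a minimum mean of 5; transcription factors were 0.25 without filter and 0.40 with a minimum mean of 5; subtype genes were 0.29 with a pseudocount of 0.1, 0.074 with one of 5 and -0.27 with a minimum mean of 5, a setting that tests fewer genes. When a library was left out, the medians lay between 0.16 and 0.48 for ligands, 0.14 and 0.24 for receptors, 0.14 and 0.42 for transcription factors, 0.088 and 0.29 for adhesion genes, -0.015 and 0.053 for subtype genes and -0.15 and 0.17 for tone and clotting genes. The median of the 7 genes ranged from -0.035 to 0.33 in those fits and was -0.051 with median ratio scaling and -0.14 with quantile normalization. Leaving out a library also moved other named genes by over 1.5 times, among them ECE1 (to 0.17), MEF2C (0.45) and RGCC (-0.47) without HS replicate 1, CAVIN2 (0.69) without drug-loaded MNs replicate 1, and SELE (0.30) without drug-loaded MNs replicate 2. What depth limits is not known, since the values carry none.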
